A study of Mus musculus with 5 samples.

Results

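The 10 genes described here, Gfap, Vim, Nes, Lcn2, Serpina3n, Steap4, Cp, Cd44, S1pr3 and Aspg, are known as markers of reactive astrocytes. They were chosen by matching their symbols among the 55385 genes of the deposited counts, and each symbol matched 1 gene. Total RNA of mouse hippocampus was sequenced in an untreated control and in mice killed 1, 4 or 8 h after seizures began. Kainic acid, which activates a class of glutamate receptors, was used to cause the seizures. There were 5 libraries in 4 conditions, with 2 libraries at 4 h and 1 in each of the other conditions. All groups were male C57/bl6 mice, 3 months of age. Kainic acid (20 mg/kg) was given by intraperitoneal injection to the mice of the 1, 4 and 8 h groups, and the control mice were untreated, so that injection and kainic acid cannot be told apart in these comparisons.

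Astrocytes answer injury, inflammation and seizures with a state called reactive astrogliosis, in which they build up intermediate filaments and change the proteins they secrete and carry on their surface. Cytokines that act through the receptor gp130 and the transcription factor STAT3 are known drivers of this state. The members are also known from other cells: Vim and Nes are found in endothelial cells, Nes in the neural progenitors of the dentate gyrus, Cd44 in leukocytes, and Cp in the choroid plexus.

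Gene counts totalled 19100374 for the control library, 17744508 for the 1 h library, 18250114 and 19109204 for replicates 1 and 2 of 4 h, and 16612225 for the 8 h library. Levels are given as CPM, which is each count scaled to a common library total after TMM normalization. In brackets after a ratio stand exact binomial 95% intervals, and the plots of levels carry exact Poisson ones. Such intervals hold nothing but counting error. A count of 3, taken as the floor, was worth between 0.151 CPM in the control and 0.178 CPM in replicate 1 at 4 h.

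The libraries differed in marker transcripts of choroid plexus and ependyma, which border the hippocampus. The 8 markers of choroid plexus and ependyma summed to 4035 CPM in the control, 1712 at 1 h, 36.1 in replicate 1 and 4319 in replicate 2 at 4 h, and 3129 at 8 h. Ttr, the transthyretin gene and the most abundant of them, stood at 3747, 1573, 16.3, 3971 and 2884 CPM in the same order. None of the 8 was at 0 in any library, and the lowest were Aqp1 and Kcnj13 with 6 counts each in replicate 1 at 4 h. Replicate 1 at 4 h thus stood apart from the other libraries in these markers, and the levels of the members are given for each library of 4 h by itself. The reason for its low values was not tested.

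The other cell types varied less in their marker sums. The 8 neuron markers (most abundant gene Map2) summed to between 5626 and 6843 CPM, and the 12 markers of homeostatic astrocytes (most abundant gene Slc1a2, a glutamate transporter) to between 5610 and 6603 CPM. The 10 microglia markers lay between 318 and 340.2 CPM, and the 8 oligodendrocyte lineage markers (most abundant gene Mbp) between 2665 and 4284 CPM. The 8 endothelial markers summed to 161.5, 256, 278, 185 and 167 CPM in the order of the libraries, where Slc2a1 took 58.8, 159.9, 134.5, 96.6 and 46.7 CPM of the sum. The 8 mural and fibroblast markers (most abundant gene Rgs5) lay between 197 and 232 CPM. The 8 blood leukocyte markers (most abundant gene Ptprc) summed to 5.23, 7.40, 10.8, 6.98 and 8.73 CPM in the order of the libraries. Mpo, myeloperoxidase, had 1, 4, 52, 10 and 4 counts, and Ly6g was at 0 in all libraries but the control, where it had 1 count. In bulk tissue, fewer cells of a type and less RNA per cell cannot be told apart.

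**Figure D1:**
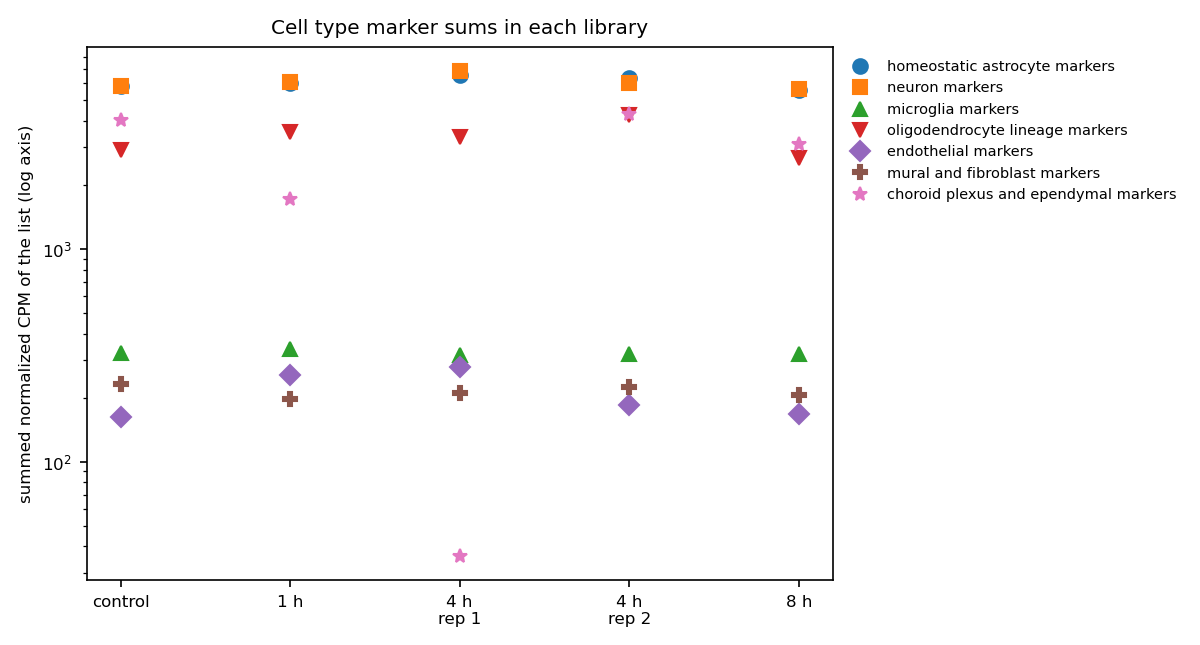
Summed normalized CPM of 7 cell type marker lists (log axis) in each of the 5 libraries, 1 point per list and library. The choroid plexus and ependymal sum drops to 36.1 CPM in replicate 1 at 4 h, while the microglia sum stays between 318 and 340.2 CPM.

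Gfap (ENSMUSG00000020932.14, chromosome 11 of GRCm38, 102887336 to 102900912, minus strand) encodes the main intermediate filament protein of astrocytes. Its counts were 4400 in the control, 4776 at 1 h, 10034 and 9647 in replicates 1 and 2 at 4 h, and 10297 at 8 h. These are 221, 272, 596, 510.2 and 587 CPM. The 4 h and 8 h libraries all lay above the control and 1 h, at 2.70 times (2.60 to 2.79) and 2.31 times (2.23 to 2.39) the control level in the 2 libraries at 4 h and 2.66 times (2.56 to 2.75) at 8 h. At 1 h the level was 1.23 times the control (1.18 to 1.28).

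Vim (ENSMUSG00000026728.9, chromosome 2, 13573927 to 13582826, plus strand) encodes vimentin, which forms filaments together with GFAP. It had 491 counts (control), 551 (1 h), 1260 and 1032 (4 h) and 1052 (8 h), or 24.7, 31.3, 74.8, 54.6 and 60.0 CPM. As with Gfap, all libraries of 4 h and 8 h lay above both earlier ones, at 3.03 times (2.73 to 3.37), 2.21 times (1.98 to 2.47) and 2.43 times (2.18 to 2.71) the control. The pair at 4 h differed by a ratio of 1.37 (1.26 to 1.49), more than counting error.

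Nes (ENSMUSG00000004891.16, chromosome 3, 87971078 to 87980451, plus strand) encodes nestin, a filament protein of neural progenitors that reactive astrocytes can express again. Its counts were 215 (control), 317 (1 h), 268 and 216 (4 h) and 264 (8 h), or 10.8, 18.0, 15.9, 11.4 and 15.1 CPM. The highest level was that of 1 h, at 1.67 times the control (1.40 to 1.99), and the groups did not follow the order seen for Gfap and Vim. Replicate 2 at 4 h was within counting error of the control, with a ratio of 1.06 (0.871 to 1.28).

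Lcn2 (ENSMUSG00000026822.14, chromosome 2, 32384633 to 32388252, minus strand) encodes lipocalin 2, a secreted protein that binds iron-loaded siderophores. It had 6 counts (control), 2 (1 h), 83 and 101 (4 h) and 101 (8 h), or 0.301, 0.114, 4.93, 5.34 and 5.76 CPM. The 1 h library was at 0.377 times the control, with an interval from 0.0373 to 2.11, so no difference between them was detectable at this depth. The later libraries were 16.4 times (7.20 to 45.8), 17.7 times (7.86 to 49.4) and 19.1 times (8.48 to 53.3) the control. The ratio of the pair at 4 h was 0.923 (0.682 to 1.25), within counting error.

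Serpina3n (ENSMUSG00000021091.8, chromosome 12, 104406729 to 104414329, plus strand) encodes a secreted serine protease inhibitor. Its counts were 564 (control), 520 (1 h), 1373 and 1212 (4 h) and 1437 (8 h), or 28.3, 29.6, 81.5, 64.1 and 82.0 CPM. The gap between the 2 early and the 3 late libraries was wider than the difference within the pair at 4 h, whose ratio was 1.27 (1.18 to 1.38). The gene lies in a cluster of related genes, and reads that aligned to more than 1 place were left out of the counts. How many reads of these genes were left out in this way was not tested. The 10 paralogues listed had no more than 10 counts each, and their summed counts were 19, 6, 28, 27 and 22, at most 3.37% of those of Serpina3n. The filter on low counts left 0 of them to be tested.

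Cp (ENSMUSG00000003617.16, chromosome 3, 19957054 to 20009145, plus strand) encodes ceruloplasmin, a copper-carrying ferroxidase. It had 400 counts (control), 333 (1 h), 559 and 585 (4 h) and 604 (8 h), or 20.1, 18.9, 33.2, 30.9 and 34.5 CPM. The late libraries lay above the early ones, at 1.65 times (1.45 to 1.88), 1.54 times (1.35 to 1.75) and 1.71 times (1.51 to 1.95) the control. The part of choroid plexus in these levels was not tested.

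Steap4 (ENSMUSG00000012428.9, chromosome 5, 7960457 to 7982213, plus strand) encodes a metalloreductase of iron and copper. Its counts were low, at 17 (control), 12 (1 h), 27 and 39 (4 h) and 22 (8 h), or 0.854, 0.683, 1.60, 2.06 and 1.26 CPM. Relative to the control, replicate 2 at 4 h was at 2.41 (1.33 to 4.55), while the intervals of replicate 1 (0.987 to 3.67) and of 8 h (0.745 to 2.95) held 1.

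Cd44 (ENSMUSG00000005087.17, chromosome 2, 102811141 to 102901665, minus strand) encodes a receptor for hyaluronan. It had 80 counts (control), 74 (1 h), 165 and 70 (4 h) and 110 (8 h), or 4.02, 4.21, 9.80, 3.70 and 6.27 CPM. The pair at 4 h did not agree: replicate 1 was at 2.65 times (1.99 to 3.55) replicate 2, which itself was at 0.921 times the control (0.659 to 1.29). Replicate 1 is also the library with the low choroid plexus markers, and it has the highest sum of leukocyte markers (10.8 CPM, against 6.98 in replicate 2). In these sums Mpo had 3.09 CPM in replicate 1 and 0.529 in replicate 2, whereas Ptprc had 5.82 and 5.08. The part of leukocytes in the Cd44 value was not tested, nor that of this library beyond leaving it out.

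S1pr3 (ENSMUSG00000067586.4, chromosome 13, 51408639 to 51422797, plus strand) encodes a receptor for sphingosine 1-phosphate. Its counts were 114 (control), 90 (1 h), 91 and 88 (4 h) and 138 (8 h), or 5.73, 5.12, 5.40, 4.65 and 7.87 CPM. The highest value was that of 8 h, at 1.37 times the control (1.06 to 1.78), and the other libraries were within counting error of the control. Exons of antisense genes overlap 1.01% of its exon length and 1.13% of that of Cp, and 0% of those of the other 8 members.

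Aspg (ENSMUSG00000037686.6, chromosome 12, 112106679 to 112127559, plus strand) encodes an asparaginase. It had 28 counts (control), 33 (1 h), 133 and 98 (4 h) and 86 (8 h), or 1.41, 1.88, 7.90, 5.18 and 4.91 CPM. The late libraries were 5.61 times (3.71 to 8.77), 3.68 times (2.40 to 5.83) and 3.49 times (2.25 to 5.55) the control. The 1 h library had a ratio of 1.33 (0.782 to 2.29), within counting error.

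**Figure D2:**
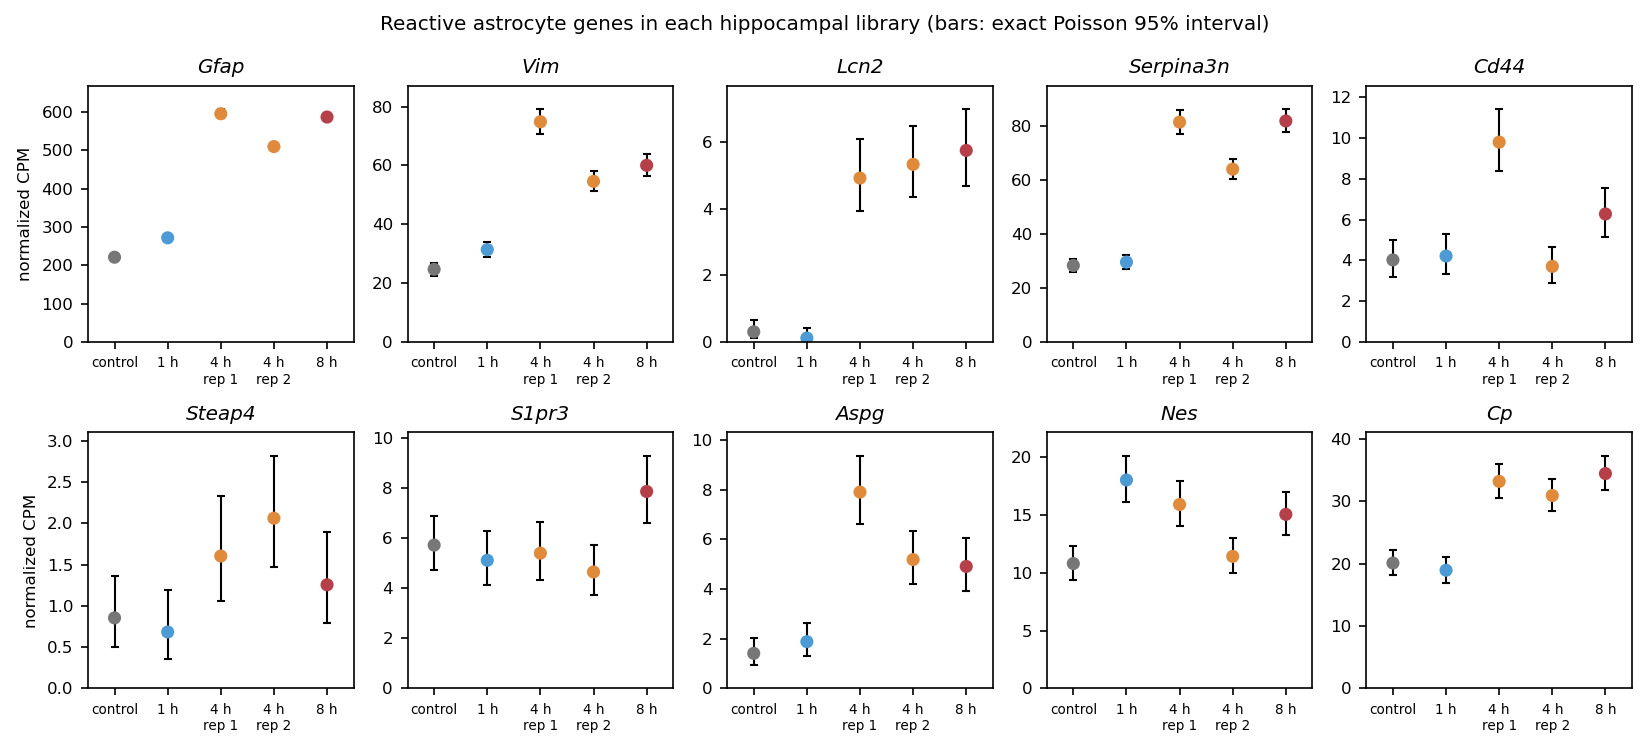
Normalized CPM (vertical axis, from 0) of the 10 genes in the control, 1 h, both 4 h and the 8 h libraries, 1 point per library with its exact Poisson 95% interval. Gfap, Vim, Lcn2, Serpina3n, Aspg, Cp and Steap4 have all 3 late libraries above both early ones, and Nes is highest at 1 h.

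The levels were put in order per length, as CPM per kb of exon of GENCODE M21. By the mean over the 5 libraries the order was Gfap (104), Serpina3n (27.7), Vim (10.3), Cp (2.88), Nes (2.22), S1pr3 (1.29), Lcn2 (1.25), Aspg (1.21), Cd44 (0.827) and Steap4 (0.409). Gfap, Serpina3n and Vim kept these 3 places in each of the libraries. Among the lower genes the order depended on the time. Lcn2 stood at 0.115 CPM per kb in the control, below Steap4 with 0.271, and at 2.20 at 8 h, near Nes with 2.35. The means of S1pr3, Lcn2 and Aspg differ by less than the range of each gene across the libraries. Gfap took between 69.7% and 73.7% of the counts summed over the members.

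**Figure D3:**
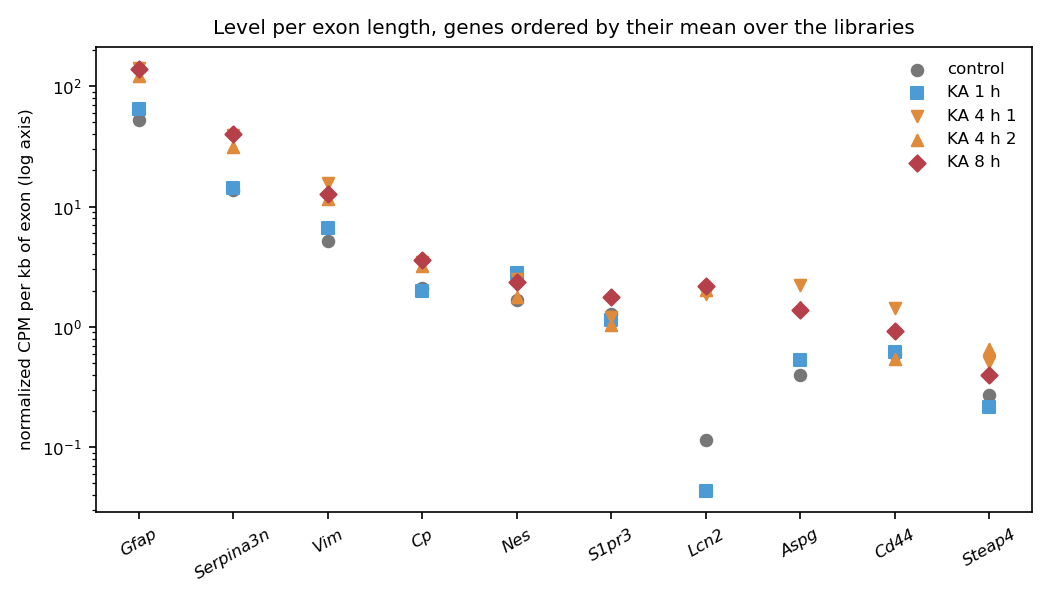
Normalized CPM per kb of exon (log axis) of the 10 genes in the 5 libraries, ordered by their mean. Gfap lies between 52.4 and 141, and Lcn2 spans from 0.0434 at 1 h to 2.20 at 8 h.

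Promoter windows of RefSeq (GRCm38.p6), from 250 bases before to 50 after the start, were at hand for all 10 members, in 11 windows, as Cp has 2. The last 150 bases before the start and the first 10 after it are shown for 5 members picked after their levels had been seen, Gfap, Vim, Lcn2, Serpina3n and Steap4, at chr11:102897191-102897350 (minus strand), chr2:13574161-13574320 (plus), chr2:32387730-32387889 (minus), chr12:104406558-104406717 (plus) and chr5:7960322-7960481 (plus). Capitals mark the STAT-type palindrome TTCCNGGAA and the TATA box TATAAA.
Gfap: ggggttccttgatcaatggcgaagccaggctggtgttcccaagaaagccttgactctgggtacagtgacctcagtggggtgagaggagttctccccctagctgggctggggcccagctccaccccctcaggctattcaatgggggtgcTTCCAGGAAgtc
Vim: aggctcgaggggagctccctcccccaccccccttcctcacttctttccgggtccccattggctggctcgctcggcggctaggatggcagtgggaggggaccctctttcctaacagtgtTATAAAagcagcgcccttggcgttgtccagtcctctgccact
Lcn2: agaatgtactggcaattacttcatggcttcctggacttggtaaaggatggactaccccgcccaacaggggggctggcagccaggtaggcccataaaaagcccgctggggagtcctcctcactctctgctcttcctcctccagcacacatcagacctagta
Serpina3n: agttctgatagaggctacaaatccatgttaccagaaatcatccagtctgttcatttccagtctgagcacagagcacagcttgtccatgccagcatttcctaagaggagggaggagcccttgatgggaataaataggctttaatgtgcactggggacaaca
Steap4: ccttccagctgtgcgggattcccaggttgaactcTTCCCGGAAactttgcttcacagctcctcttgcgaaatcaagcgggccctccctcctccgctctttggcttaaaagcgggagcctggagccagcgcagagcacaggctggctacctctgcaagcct

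There were 6 motifs searched on both strands of the whole windows. TTCCNGGAA was in the windows of Gfap, where it lies across the RefSeq start site from base -2, and of Steap4, where it begins at -116. It was in 1.15% of all 32851 windows. The RefSeq start used for Gfap lies inside the gene span given above, which runs to 102900912 on the minus strand. The looser TTCNNNGAA, which takes in every TTCCNGGAA, was in 8.30% of windows and in those of the same 2 members. TATAAA was in 13.6% of windows and in those of Vim (from -32), Cp (from -25) and Steap4. In Steap4 the match was on the opposite strand from -215, outside the bases shown. TGANTCA, the AP-1 letters, was in 7.81% of windows and in 1 of Cp. The NF-kB consensus was in 8.46% of windows and in those of Vim and Steap4, and CACGTG, in 7.15% of all windows, was in 0 of the members' windows. A match describes these letters only.

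At 1 h the members as a group were near the control. The question of this comparison was whether expression had changed soon after seizure onset. The members' median log2 fold change was 0.06, against -0.005 over all 19768 genes tested, and 6 of 10 lay above the control, as did 9702 of the 19768 genes. With library size alone as normalization the median was -0.0086 and Serpina3n (0.06) and Cd44 (0.07) were at -0.011 and -0.0062, so no direction is given for them and 4 of 10 lay above the control in that setting. Nes had the highest value (log2 fold change 0.73, SE 0.35), followed by Aspg (0.39, SE 0.55), Vim (0.34, SE 0.29) and Gfap (0.30, SE 0.20). EdgeR's quasi-likelihood F-test, adjusted by Benjamini-Hochberg, called 0 members, against 0% of all genes. An unadjusted p under 0.05 was found for 0 members and 478 of the genes tested, and DESeq2 and limma-voom called 0 members each, of 49 and 0 genes. The count of members at least 2-fold above the control was 0, where 4.14% of all genes passed this mark.

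At 4 h the filament genes Gfap and Vim, the secreted Lcn2 and Serpina3n, and Aspg stood at least 2-fold above the control in both libraries. These are 5 of 10 members, where 3.91% of all genes tested passed the same mark. The log2 fold changes were 3.67 (SE 0.55) for Lcn2, 2.13 (SE 0.50) for Aspg, 1.39 (SE 0.27) for Vim, 1.36 (SE 0.23) for Serpina3n and 1.32 (SE 0.19) for Gfap. Steap4 (1.01, SE 0.56), Cd44 (0.73, SE 0.64), Cp (0.67, SE 0.22) and Nes (0.34, SE 0.31) had smaller values, and S1pr3 was at -0.18 (SE 0.35). The members' median was 1.17 and that of all genes 0.0098.

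None of these differences passed the Benjamini-Hochberg threshold of edgeR's quasi-likelihood test, with adjusted p from 0.242 for Gfap and Lcn2 to 0.86 for S1pr3. It called 0 members, against 0.00506% of all genes (1 gene). An unadjusted p under 0.05 was found for 6 members and 2291 genes, DESeq2 called 4 members (Gfap, Vim, Lcn2 and Serpina3n) of 233 genes, and limma-voom 0 of 0. The p-values rest on the spread between these samples only, since nothing in the sources says that they were separate animals, and the fit had 1 residual degree of freedom, from the 4 h pair, whose spread was taken to hold for the 3 conditions with a single library. Without replicate 1 the members' median was 1.16, and Lcn2, Aspg, Gfap, Serpina3n and Vim were at 3.74, 1.81, 1.21, 1.18 and 1.15. Without it the value of Cd44 was -0.11 and that of Nes 0.08, and without replicate 2 that of Nes was 0.56; these are values with no test.

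At 8 h the same 5 members were at least 2-fold above the control, where 5.24% of all genes passed the mark. The log2 fold changes were 3.83 (SE 0.58) for Lcn2, and for Aspg 1.73 (SE 0.54), Serpina3n 1.53 (SE 0.26), Gfap 1.41 (SE 0.21) and Vim 1.28 (SE 0.29). The other 5 lay between 0.45 (S1pr3, SE 0.40) and 0.77 (Cp, SE 0.25), and all 10 were above the control, where 10095 of the 19768 genes tested were. The members' median was 1.03 and that of all genes 0.0091. EdgeR's quasi-likelihood test, after Benjamini-Hochberg adjustment, called 0 members, with adjusted p from 0.756 to 1, against 0% of all genes. An unadjusted p under 0.05 was found for 6 members and 892 genes, DESeq2 called 1 member, Gfap, of 32 genes, and limma-voom 0 of 0. All 3 comparisons share the 1 control library, so a deviation of that library would move all of them.

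**Figure D4:**
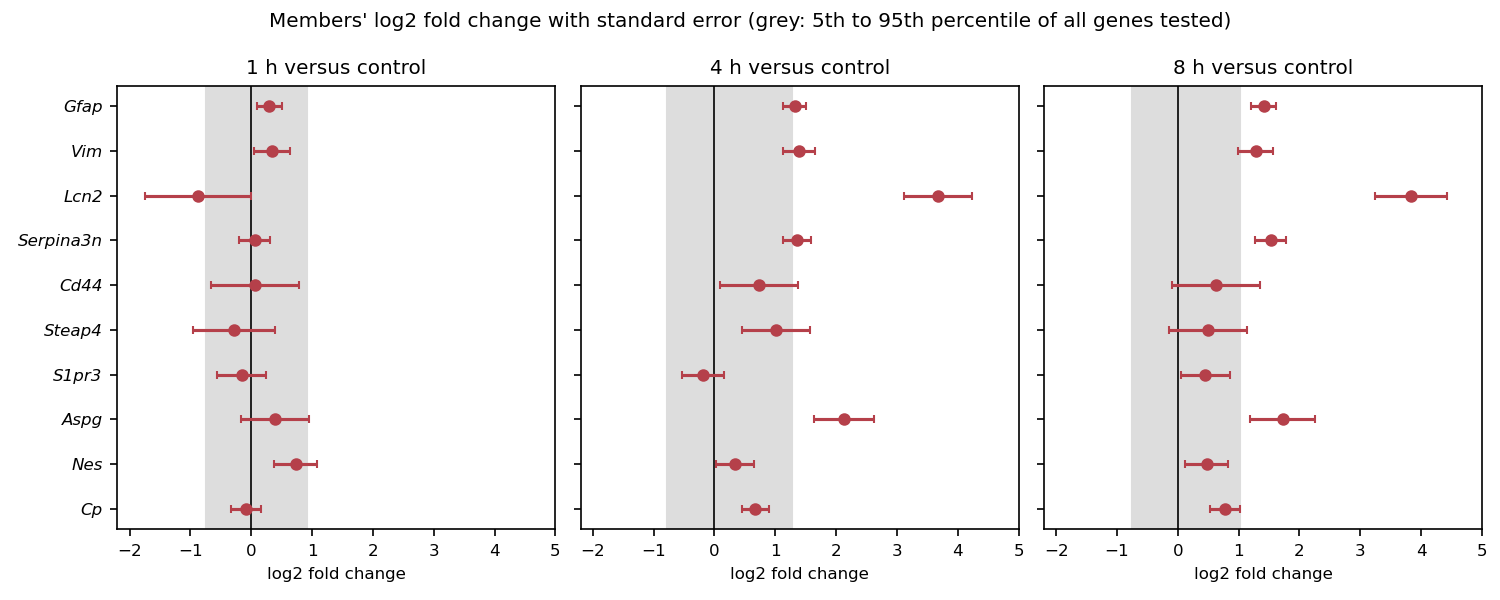
Log2 fold change against the control (horizontal axis) of the 10 genes at 1, 4 and 8 h, with standard errors of edgeR's quasi-likelihood fit. The grey band runs from the 5th to the 95th percentile of all genes tested, and Lcn2 lies at 3.67 at 4 h and 3.83 at 8 h.

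Over the whole course, all 3 libraries of 4 h and 8 h lay above both the control and the 1 h library for 7 of 10 members (Gfap, Vim, Lcn2, Serpina3n, Aspg, Cp and Steap4), where 15.8% of all genes did. The slope over hours had a median of 0.15 log2 units per hour for the members and of 0.0019 for all genes. EdgeR's quasi-likelihood test, after Benjamini-Hochberg adjustment, called 0 members for the slope, with adjusted p from 0.6995 for Serpina3n to 0.993 for Nes, against 0% of all genes. An unadjusted p under 0.05 was found for 5 members and 1160 genes, DESeq2 called 2 members (Lcn2 and Serpina3n) of 93 genes, and limma-voom 0 of 0. Between 4 h and 8 h the members had log2 differences from -0.51 (Steap4, SE 0.54) to 0.64 (S1pr3, SE 0.34), and the test called 0 of 19768 genes, with an unadjusted p under 0.05 for 1726.

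Other gene lists of reactive astrocytes were counted in the same way, and edgeR's quasi-likelihood test called 0 of their genes at each time. Of the 4 other pan-reactive genes, 0 were at least 2-fold above the control at 1 h, 2 were at least 2-fold above the control in both libraries of 4 h and 3 at 8 h. Of all genes tested, 4.14%, 3.91% and 5.24% passed these marks. Osmr, the oncostatin M receptor, stood at 4.72, 5.97, 47.3, 22.9 and 24.8 CPM, with log2 fold changes of 2.86 (SE 0.53) at 4 h and 2.36 (SE 0.56) at 8 h. Timp1, an inhibitor of metalloproteinases, and Hspb1, a small heat shock protein, were highest in replicate 1 at 4 h, with 5.52 and 17.1 CPM against 0.846 and 5.50 in replicate 2. Timp1 passed the mark at 4 h and 8 h from 3 counts in the control, which is the floor. It had 16 counts in replicate 2 at 4 h and 13 at 8 h.

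The 12 A1-type and 12 A2-type genes, which were named for astrocytes after inflammation and after ischemia, differed in their values. Of 11 A1-type genes tested, 0 were at least 2-fold above the control at 1 h, 0 in both libraries of 4 h and 1, Gbp2 (log2 fold change 1.05, SE 0.44), at 8 h. Iigp1, an interferon-inducible GTPase, was at least 2-fold below the control in both libraries of 4 h, with 3.32 CPM in the control and 1.25 and 0.846 (log2 fold change -1.57, SE 0.50, adjusted p 0.357 by edgeR's quasi-likelihood test), as were 215 of all genes. The list's median was 0.11 at 1 h, 0.29 at 4 h (0.24 and 0.34 in replicates 1 and 2 by themselves) and 0.53 at 8 h. Of 11 A2-type genes tested, 5 were at least 2-fold above the control at 1 h (1 of them, Tgm1, with 2 counts, under the floor). At 4 h 8 genes passed the mark in both libraries, and 5 passed it at 8 h. Tgm1 and Slc10a6, with 0 counts in the control, were among the 8. The shares of all genes tested that passed were 4.14%, 3.91% and 5.24% at 1, 4 and 8 h. The list's median was 0.59 at 1 h, 2.31 at 4 h (2.66 and 1.85 in replicates 1 and 2 by themselves) and 0.97 at 8 h, with Tgm1 and Slc10a6, which had 0 counts in the control, set to their bound against the floor or left out where they were at or under it. Tgm1, a transglutaminase, was at least 24.0-fold and 4.56-fold higher than the floor of the control library in replicates 1 and 2 at 4 h, and the bound for the 8 h library was 5.30-fold. Ptgs2, cyclooxygenase 2, which excited neurons also express, stood at 23.2, 442.5, 672, 244 and 58.6 CPM and took most of the list's sum at 1 h and in both libraries of 4 h. S100a10, an annexin partner, had 8.34, 8.19, 20.9, 21.3 and 22.2 CPM, with log2 fold changes of 1.33 (SE 0.26) and 1.40 (SE 0.29) at 4 h and 8 h. The difference between these lists was not tested.

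**Figure D5:**
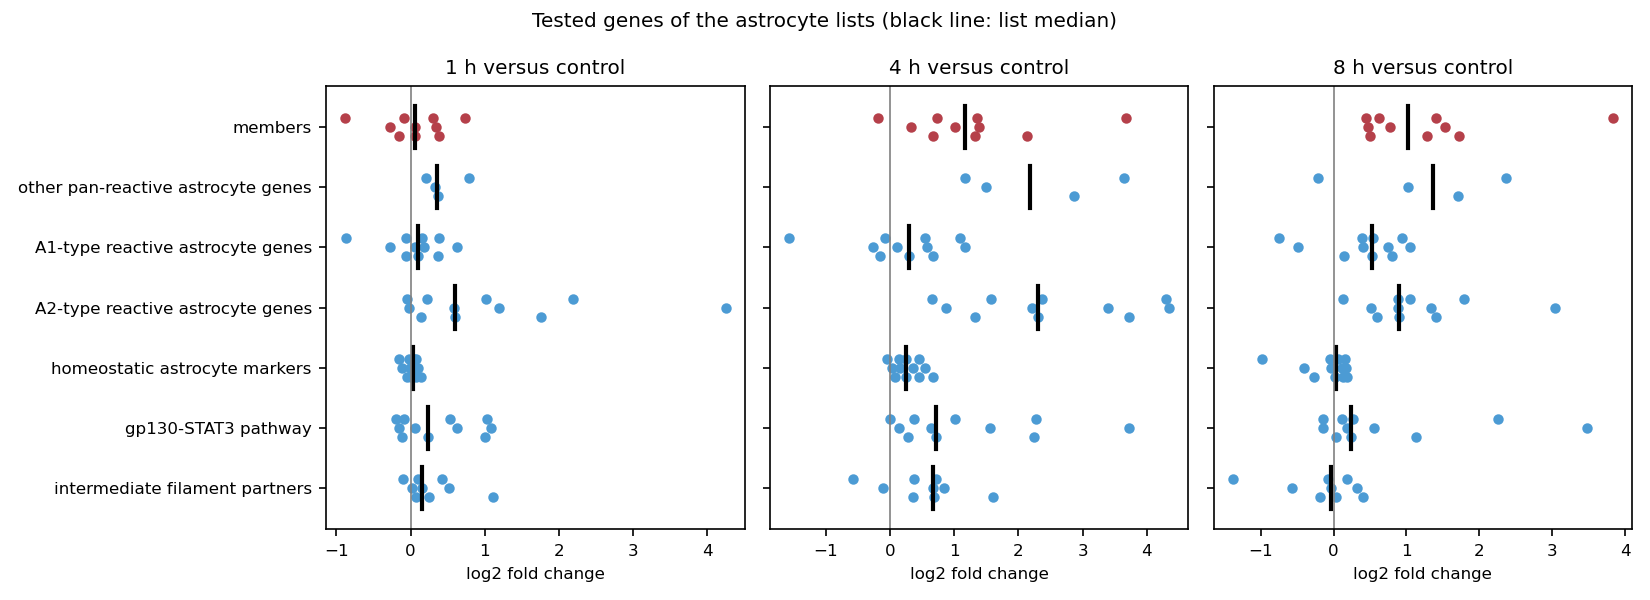
Log2 fold change against the control at 1, 4 and 8 h of the tested genes of 7 lists, 1 point per gene, with the fitted list median as a black line. The members' median moves from 0.06 at 1 h to 1.17 and 1.03 at 4 h and 8 h, and the median of the homeostatic astrocyte markers lies between 0.03 and 0.25.

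The 12 homeostatic astrocyte markers had medians nearer to 0 than the members at 4 h and 8 h. Of the 12, 10 lay above the control in both libraries of 4 h and 7 at 8 h. Of the 19768 genes tested, 7528 and 10095 did. The list's median log2 fold change was 0.03, 0.25 and 0.04 in the 3 comparisons in order of time (0.27 and 0.22 in replicates 1 and 2 at 4 h by themselves), and 0 of 12 were at least 2-fold above the control at any time. Slc1a3, a glutamate transporter, had 509 CPM in the control and 579 at 8 h. Gja1, the gap junction protein connexin 43, stood at 194.5, 175, 194.1, 202 and 98.6 CPM, with -0.98 (SE 0.18) as the log2 fold change of 8 h, and Gjb6, connexin 30, at 58.0, 62.3, 75.9, 73.1 and 43.7 CPM, with -0.41 (SE 0.20). Their adjusted p at 8 h by edgeR's quasi-likelihood test were 0.882 and 1.

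Of the 13 genes of the gp130 and STAT3 pathway, 11 were tested, and 0 were called at any time. The list's median log2 fold change was 0.23, 0.71 and 0.24 in order of time (0.93 and 0.32 in replicates 1 and 2 at 4 h by themselves). At least 2-fold above the control were 2 genes at 1 h, 1 in both libraries of 4 h and 3 at 8 h. Of all genes tested, 4.14%, 3.91% and 5.24% passed these marks. Il6st, which encodes gp130, Jak1 and Cntfr had 0.15 (SE 0.19), 0.28 (SE 0.16) and -0.0042 (SE 0.25) at 4 h, and Il6ra 0.64 (SE 0.31). Stat3 had 49.1, 75.9, 110.4, 87.8 and 72.5 CPM, with log2 fold changes of 0.63 (SE 0.24), 1.01 (SE 0.22) and 0.56 (SE 0.24). Socs3, a feedback inhibitor, was at 38.9 CPM in replicate 1 and 4.81 in replicate 2 at 4 h, with 1.56 in the control and 7.87 at 8 h. Lif, a cytokine of the family, had 10 counts (control), 20 (1 h), 79 and 20 (4 h) and 118 (8 h). The 9 partners among the intermediate filament genes had a median log2 fold change of 0.16 at 1 h, 0.67 at 4 h (0.80 and 0.45 in replicates 1 and 2 by themselves) and -0.03 at 8 h. Ina, a neuronal filament protein, stood at 79.7, 173, 316, 169.4 and 99.4 CPM, and Synm, synemin, at 67.9, 68.6, 80.3, 93.5 and 45.9 CPM.

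Of the markers of other cell types, edgeR's quasi-likelihood test called 0 at each time. The list medians of the log2 fold change at 1 h lay between -1.03 (choroid plexus and ependyma) and 0.70 (blood leukocytes). The median log2 fold changes at 4 h and 8 h were 0.0098 and -0.15 for neurons, -0.07 and 0.08 for microglia, 0.34 and -0.16 for oligodendrocyte lineage, 0.09 and 0.36 for endothelium, -0.12 and -0.0023 for mural cells and fibroblasts, 0.41 and 0.90 for the 4 tested blood leukocyte markers, and -0.67 and -0.19 for choroid plexus and ependyma. The 4 h medians of 3 of these lists had opposite signs in replicates 1 and 2 by themselves: -5.12 and 0.27 for choroid plexus and ependyma, 0.38 and -0.16 for endothelium, and 0.05 and -0.03 for neurons, so no direction at 4 h is given for them. The tested blood leukocyte markers other than Ptprc had at most 11 counts in the control, so the medians of that list rest on few reads. Within a list the genes also differed in sign. At 4 h and 8 h the log2 fold changes were 0.54 and 0.99 for Pecam1, 1.23 (SE 0.60) and 0.47 for Cdh5, -0.41 and 0.45 for Emcn and -0.67 and 0.39 for Kdr, all of endothelium, and -1.003 and -0.61 for P2ry12, -0.16 and -0.43 for Siglech, 0.41 and 0.32 for C1qa and 0.42 and 0.35 for C1qb, all of microglia. The replicates at 4 h differed for Pecam1, with 261 counts in the control and 387 and 287 in replicates 1 and 2, and for Cdh5, with 106 in the control and 305 and 136. The part of these cells in the members' values was not tested.

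The genes outside all lists most like the members were found by Pearson correlation with the members' mean profile over the 5 libraries, among 3804 genes. The 10 highest were Pdzd2 (r = 0.9991), Maml3, Pde2a (ENSMUSG00000110195.1), Hmcn2, Gm43275, Lox, Tpt1-ps6, Lhfp, Arntl and Ppm1h (r = 0.9902). Pdzd2 had 51.1, 51.7, 130.2, 108 and 120.3 CPM, and Ppm1h, a protein phosphatase, 88.8, 85.9, 194.7, 176 and 172.5 CPM. Such likeness over 5 libraries is a description and says nothing of shared control.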

How the data were processed

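Hippocampal total RNA of 5 libraries was analysed. The libraries were prepared with a stranded kit, and the submitters' processing notes name STAR 2.5.1b, HTSeq and GRCm38.p4. The authors deposited raw counts of reads per gene; no source used here gives the strand setting or the annotation release. In the control, 1 h, both 4 h and the 8 h libraries 24.7%, 29.0%, 33.1%, 25.3% and 30.9% of the deposited reads lay on no gene and stayed out of library sizes and tests. So did reads that aligned to more than 1 place, which were 11.6%, 10.2%, 9.67%, 11.6% and 10.4%. Of the 55385 identifiers 55144 were found in GENCODE M21, and all 10 members with the same version.

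The fits used edgeR 4.0.16 under R 4.3.3 (filterByExpr, which kept 19768 genes and all 10 members, TMM, prior count 2, quasi-likelihood test, Benjamini-Hochberg over all genes tested, threshold 0.05), with 4 groups or with time in hours as slope. The log2 fold changes printed are shrunk toward 0 by the prior count. A standard error is the unshrunk coefficient divided by the square root of F, so value and error differ in scale for low counts. The common dispersion was 0.0565. Marks of 2-fold and list medians of single 4 h libraries used log2 CPM with the prior count. Alternatives were 12 settings, among them DESeq2 1.42.0 and limma-voom (limma 3.58.1). Scripts were tested on simulated data. Plots were made in matplotlib 3.10.9 (Python 3.11.15).

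All members were named; of each other list up to 4 genes with the largest absolute log2 fold change at 8 h and at least 50 counts in a library were taken by rule, of which some are printed. Slc1a2, Map2, Mbp and Slc2a1 are named as most abundant or as a large share of a sum, and Slc10a6 and Ly6g for counts near 0. Iigp1, Il6st, Jak1 and Cntfr are named for their direction or small values. All of these were picked after their values were seen. The 10 most alike genes had a mean of at least 1 CPM and a log2 range of at least 1. The motifs were chosen after the data were seen. The members and lists were chosen with earlier results of these data known.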

Additional observations from a re-analysis of the deposited data

Results flagged for a closer look

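For 4 members the single time points lay on opposite sides of the control, which is why their differences between times are given here; the comparisons of times with each other do not use the control. Lcn2, Steap4 and Cp lay below the control at 1 h and above it in both libraries of 4 h. At 1 h the ratios to the control of Lcn2, Steap4, Cp and S1pr3 were 0.377 (exact binomial 95% interval 0.0373 to 2.11), 0.799 (0.348 to 1.78), 0.943 (0.813 to 1.09) and 0.894 (0.670 to 1.19), so the side of 1 h was within counting error for all 4. For Lcn2, Steap4 and Cp the log2 differences of 4 h from 1 h were 4.55, 1.30 and 0.76, with adjusted p of 0.39, 0.635 and 0.534 by edgeR's quasi-likelihood test (Benjamini-Hochberg). At 8 h against 1 h they were 4.71, 0.78 and 0.86, with adjusted p of 0.506, 0.921 and 0.756 by the same edgeR test. Lcn2 had 2 counts at 1 h, and the ratio of 8 h to 1 h had a counting interval from 13.7 to 424. S1pr3 lay below the control at 1 h and in both libraries of 4 h and above it at 8 h, with log2 differences of 0.61 from 1 h and 0.64 from 4 h and adjusted p of 0.905 and 0.643 by the edgeR test. None of these differences passed the threshold. Over all genes the edgeR test called 1 of 19768 for 4 h against 1 h and 0 for 8 h against 1 h.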

How the results depend on the processing

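Of the 12 alternatives, 11 gave a median of the members, and these kept its direction at 4 h, at 8 h and in the slope; at least 10 counts in every library, which leaves Lcn2 out, gave none. With library size alone the median at 1 h was -0.0086, Serpina3n at 1 h was at -0.011 and Cd44 at 1 h at -0.0062. Without replicate 1 at 4 h, Cd44 at 4 h was at -0.1124, and without replicate 2 at 1.2666. Leaving out a replicate at 4 h gave medians from 1.16 to 1.35 at 4 h; these fits with groups had no residual degrees of freedom and gave values with no test.

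The counts of calls depended on the test and its settings, and the cause was not tested. At 1, 4 and 8 h, library size alone called 57, 237 and 22 genes, with 4 members at 4 h and 2 at 8 h. No filter on low counts called 285, 1300 and 279 genes, with 5 members at 4 h and 4 at 8 h. DESeq2 called 49, 233 and 32 genes and 93 for the slope, with 4, 1 and 2 members at 4 h, at 8 h and for the slope. An assumed biological coefficient of variation of 0.2 called 238, 916 and 184 genes and 363 for the slope, with 5, 3 and 5 members, and one of 0.4 called 40, 81 and 12 genes and 63 for the slope, with 1 member at 4 h and 1 for the slope. At least 10 counts in every library called 1 gene at 1 h and 0 at 4 h. Median-of-ratios factors and limma-voom called 0 genes at 4 h, and robust empirical Bayes 1 at 1 h. No paired analysis was possible because the control, 1 h and 8 h groups have 1 library each. Counts under 50, as for Lcn2 and Aspg in the early libraries and Steap4 in all, gave wide counting intervals for those ratios.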
